A study of Rattus norvegicus with 8 samples.

Results

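The growth hormone and insulin-like growth factor (IGF) axis of the rat liver was followed through 8 genes chosen by name: Ghr, Stat5b, Socs2, Igf1, Igfals, Igfbp1, Igfbp2 and Igfbp4. Each was found as 1 row among the 32545 genes of the deposited table. RNA came from livers of wild type Sprague-Dawley rats, an outbred strain, in 2 diet groups. The normal diet group (ND, 3 libraries) ate chow with 8.5% of calories from fat, 59.6% from carbohydrate and 20.3% from protein. The high fat diet group (HFD, 5 libraries) ate food with 41% of calories from fat, 43% from carbohydrate and 17% from protein. The diet was given for 24 weeks per the labels, which is longer than the age of about 22 weeks that they also give. Each diet had 12 rats, of which the libraries are a part, and food was freely available. The labels give no sex, no hour of collection and no time since the last meal, and they do not say whether a library came from 1 rat, so p-values measure the spread between these libraries.

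Growth hormone from the pituitary binds its receptor on the hepatocyte, encoded by Ghr, and the kinase JAK2 on that receptor activates the transcription factor STAT5B. STAT5B switches on Igf1, Igfals and feedback genes of the SOCS family such as Socs2 and Cish. The liver releases most of the IGF1 in blood, where it travels in a complex with the acid-labile subunit (Igfals) and IGFBP3, while the smaller binding proteins IGFBP1, IGFBP2 and IGFBP4 hold IGF1 in short-lived pairs. Igfbp1 is known for fast transcriptional repression by insulin.

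2 promoters are shown because they belong to the most variable binding protein gene of the axis and to a textbook STAT5 target, which frame the values that follow. Each runs from 250 bases before to 50 after the RefSeq start in build GRCr8, on the plus strand, and positions count back from the start. In the Igfbp1 promoter (chr14:86261027-86261326) capitals mark the parts of the insulin response element known from this gene, first CAAAACA and then, on the minus strand, CAAAATA.
Igfbp1: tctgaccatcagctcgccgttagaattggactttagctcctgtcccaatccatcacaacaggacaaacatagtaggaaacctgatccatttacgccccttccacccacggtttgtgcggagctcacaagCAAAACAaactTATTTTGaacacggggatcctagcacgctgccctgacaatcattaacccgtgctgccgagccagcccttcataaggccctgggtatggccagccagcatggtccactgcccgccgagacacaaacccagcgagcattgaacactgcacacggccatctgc
In the Cish promoter (chr8:116850719-116851018) capitals mark the STAT motif TTCNNNGAA, a palindrome that reads the same on both strands.
Cish: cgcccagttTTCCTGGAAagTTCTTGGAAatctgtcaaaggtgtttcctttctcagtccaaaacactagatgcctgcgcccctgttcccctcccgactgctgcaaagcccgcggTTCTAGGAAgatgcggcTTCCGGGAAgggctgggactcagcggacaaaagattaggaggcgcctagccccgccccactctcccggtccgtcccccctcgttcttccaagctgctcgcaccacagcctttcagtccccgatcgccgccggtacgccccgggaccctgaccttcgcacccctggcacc
In Igfbp1 the matches lay at -121 to -115 and at -110 to -104. Searched on both strands, CAAAACA was in 6.28% and CAAAATA in 4.96% of 33469 promoters of this length, and both together were in 0.43%. A promoter sequence was found for 7 of the 8 genes, all but Socs2, which was not searched. Of these 7 Igfbp1 and Igf1 held CAAAACA, the latter at -67 to -61, and Igfbp1 also held CAAAATA. TTCNNNGAA was in 8.87% of all promoters, 4 times in that of Cish and in 0 of the 7. These are matches of letters within the window.

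The table held 12678616 to 36152937 counts per library, in a deep set with 30501673 or more (2 libraries of each diet, numbered 1 and 3 for ND and 1 and 2 for HFD) and a shallow set with at most 18401981 (the other ND library, ND-2, and the other 3 of HFD). Alb, the albumin gene that defines hepatocytes, was at 38813 to 43759 FPKM (the authors' fragment level scaled to gene length and library size) in all 8. ND-3 stood apart in clock genes: Arntl, the gene of BMAL1, was at 13.5 FPKM there and at 0.384 to 1.57 FPKM elsewhere, and Dbp, a clock output, at 1.55 against 15.9 to 36.5 FPKM. HFD-3 stood apart in immune cell markers: 9 Kupffer cell and macrophage markers summed to 424 FPKM there, against 188 to 252 FPKM in the ND libraries and 149 to 219 FPKM in the other HFD libraries. In bulk liver, fewer cells of a type and less RNA per cell cannot be told apart.

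The diet comparison asked whether the hepatic axis differs between chow and a high fat diet. Of the 8 genes, all of which passed the filter on low counts, 0 passed edgeR's quasi-likelihood test at a Benjamini-Hochberg adjusted p of 0.05, and 1, Igfbp2, had an unadjusted p under 0.05. Over all 14148 genes tested, 0.00707% passed (1 gene) and 5.71% had an unadjusted p under 0.05. DESeq2, which called 0.968% of all genes, called 0 of the 8. The FPKM ranges of the diets overlapped for all 8 genes, and they did not overlap for 3.89% of all genes. Fitted values were lower in the HFD group for 6 genes and higher for 2, where 48.8% of all genes were lower. The median log2 fold change was -0.12 over the 8 and 0.01 over all genes. The 8 genes differed widely in how much they varied from library to library.

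**Figure D1:**
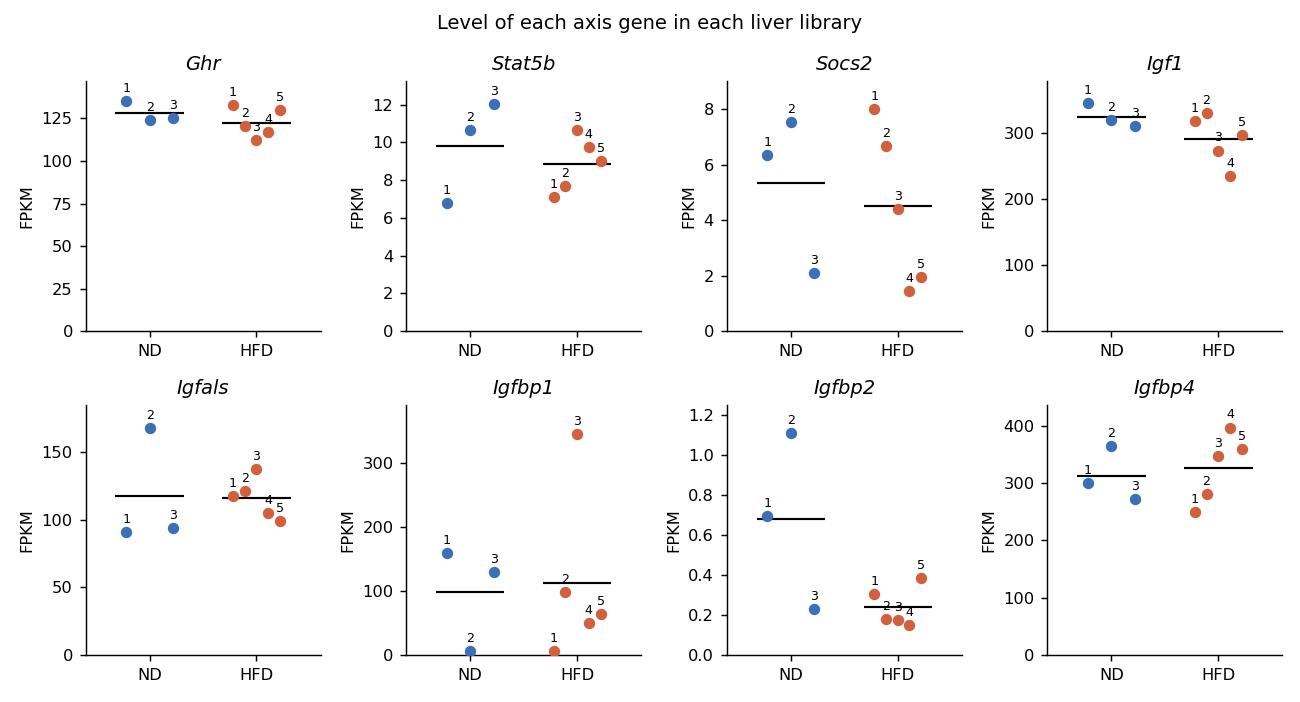
Level in FPKM (vertical axes, from 0) of the 8 axis genes in each ND library (blue) and HFD library (orange); numbers beside points are replicate numbers and bars are diet means. Ghr and Igf1 are tight, while Igfbp1 runs from 5.83 FPKM in ND-2 to 346 FPKM in HFD-3 and the diets overlap in every panel.

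The receptor was the steadiest of the 8. Ghr (ENSRNOG00000015654, Rnor_6.0 chromosome 2, 53150370 to 53413638) was at 135, 124 and 125 FPKM in ND-1 to ND-3, and at 133, 120, 112, 117 and 130 FPKM in HFD-1 to HFD-5. The highest library exceeded the lowest 1.2-fold, and the diets overlapped. The means were 128 ± 6.06 FPKM (SD, n = 3) and 122 ± 8.52 FPKM (SD, n = 5). The log2 fold change was -0.08 ± 0.12 (SE, adjusted p = 0.993 by edgeR), with a 95% interval of -0.35 to 0.19, that is a level in the HFD group of 0.787 to 1.14 times that in the ND group. Jak2, the kinase gene, was at 6.19 ± 0.286 and 7.04 ± 1.49 FPKM (adjusted p = 0.993 by edgeR). HFD-3 held its highest value, 9.38 FPKM.

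Stat5b (ENSRNOG00000019075, chromosome 10, 88686207 to 88754829) was at 6.80, 10.6 and 12.0 FPKM in the ND group and at 7.10, 7.67, 10.7, 9.74 and 9.01 FPKM in the HFD group. The lowest values were those of ND-1 and HFD-1 and the highest that of ND-3, so the spread ran across both diets. Its log2 fold change was -0.16 ± 0.20 (SE, adjusted p = 0.993 by edgeR; 95% interval -0.60 to 0.28). Stat5a, the gene of the close relative STAT5A, was also highest in ND-3, at 4.13 FPKM against 1.77 to 2.58 FPKM in the other 7 libraries. Its means were 2.84 ± 1.19 and 2.10 ± 0.274 FPKM (adjusted p = 0.950 by edgeR). Without ND-3 the log2 fold change of Stat5b was 0.02, against -0.16 with all libraries, and that of Stat5a was -0.05, against -0.45. ND-3 is also the library that stood apart in clock genes, and the part of this was not tested.

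Among genes of negative feedback on the receptor, Socs2 and Cish spread widely between libraries of a diet, with SDs of log2 CPM of 1.03 and 1.02, while Socs5 and Socs6, 2 relatives in the same family, had SDs of 0.0922 and 0.139. Socs5 and Socs6 were picked out after their values were seen, and Socs3, of the same family, had an SD of 0.661. Socs2 (ENSRNOG00000008965, chromosome 7, 36495480 to 36499784), a STAT5-induced gene whose product restrains growth hormone signalling, was at 6.33, 7.55 and 2.10 FPKM in the ND group. In the HFD group it was at 8.01, 6.68, 4.39, 1.46 and 1.95 FPKM. The highest and the lowest library, HFD-1 and HFD-4, were both in the HFD group and differed 5.47-fold. The log2 fold change was -0.23 ± 0.57 (SE, adjusted p = 0.993 by edgeR), and its interval of -1.50 to 1.04 leaves room for a change of either sign. Within the deep set the log2 difference was 0.93, and within the shallow set -1.63, where ND-2 is the 1 ND library. Without ND-2 the log2 fold change was 0.05.

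Cish, whose promoter is printed above, was at 1.93, 3.16 and 0.631 FPKM in the ND group and at 1.46, 0.678, 0.950, 0.239 and 0.617 FPKM in the HFD group. ND-2 held its highest value and HFD-4 its lowest, and the diets overlapped. The means were 1.91 ± 1.27 and 0.789 ± 0.453 FPKM (log2 fold change -1.24 ± 0.55, adjusted p = 0.878 by edgeR). Without ND-2 the log2 fold change of Cish was -0.74. Socs3, a feedback gene that also answers to inflammatory cytokines, was at 3.50 ± 1.45 and 3.06 ± 1.26 FPKM (adjusted p = 0.993 by edgeR).

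Igf1 (ENSRNOG00000004517, chromosome 7, 28412198 to 28486609), the hormone gene, was at 346, 320 and 311 FPKM in the ND group and at 319, 331, 274, 236 and 298 FPKM in the HFD group. HFD-3, HFD-4 and HFD-5 lay below all 3 ND libraries, and HFD-1 and HFD-2 lay among them. The 3 low libraries belong to the shallow set, whose chow library ND-2 was at 320 FPKM. The means were 326 ± 18.2 and 292 ± 37.9 FPKM, with a log2 fold change of -0.17 ± 0.14 (SE, adjusted p = 0.993 by edgeR). The 95% interval, -0.49 to 0.15, spans levels of 0.711 to 1.11 times the chow level. Within the deep set the log2 difference was -0.08, and within the shallow set -0.20.

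By a fixed rule, the 3 of 4493 other genes at 10 FPKM or more whose log2 CPM (counts scaled to library size) followed Igf1 most closely over the 8 libraries were Mrpl32, Ppp3cb and Ggnbp2, with Pearson's r of 0.946, 0.944 and 0.932. These are the highest of many values over 8 libraries that also differ in depth, and are a description. Igf2, the fetal ligand gene, which is silenced in liver after birth in rats, was at 0.0279 to 0.148 FPKM in the 8 libraries. Igf1r, the IGF1 receptor gene, known to be low in hepatocytes, was at 0.420 ± 0.0366 and 0.521 ± 0.187 FPKM (adjusted p = 0.993 by edgeR).

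The partners of IGF1 in the large blood complex did not pass between the diets. Igfals (ENSRNOG00000015061, chromosome 10, 14240219 to 14243597) was at 90.6, 167 and 93.4 FPKM in the ND group and at 118, 121, 137, 105 and 99.01 FPKM in the HFD group. ND-2 was the highest of all 8 libraries, and ND-1 and ND-3 were the lowest. The log2 fold change was -0.02 ± 0.19 (SE, adjusted p = 0.998 by edgeR; 95% interval -0.46 to 0.42). Without ND-2 it was 0.29. Igfbp3, the main IGF carrier of blood, made in liver largely outside hepatocytes, was at 16.7 ± 1.81 and 14.8 ± 2.35 FPKM (adjusted p = 0.993 by edgeR).

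Igfbp1 (ENSRNOG00000058780, chromosome 14, 87448692 to 87453785) varied more from library to library than any other of the 8 genes. In the ND group it was at 160, 5.83 and 129 FPKM, and in the HFD group at 6.74, 98.0, 346, 49.9 and 63.8 FPKM. ND-2 and HFD-1 were lowest, HFD-3 was highest, and the others lay between. The range was 27.4-fold within chow and 51.2-fold within the high fat diet, and 59.2-fold over all. These levels rest on 113 counts in ND-2, 343 in HFD-1 and 7019 in HFD-3. The means were 98.4 ± 81.5 FPKM (SD, n = 3) and 113 ± 134 FPKM (SD, n = 5).

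The log2 fold change of Igfbp1 was 0.14 ± 1.12 (SE, adjusted p = 0.998 by edgeR). Its 95% interval of -2.37 to 2.66 spans levels of 0.193 to 6.32 times those in the ND group, so a difference of several fold was not detectable between these groups. The sign depended on single libraries: the log2 fold change was -0.41 without ND-2 and -0.89 without HFD-3. The difference of mean log2 CPM between the diets was -2.54 within the deep set and 4.20 within the shallow set, whose only chow library is ND-2. In HFD-3 the Kupffer cell and macrophage markers were also highest, with all 9 detected, and their part in the Igfbp1 level was not tested.

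From the list of fasting, FOXO1 and glucagon responsive genes, Pck1 and G6pc had their lowest or highest values in some of the same libraries. Pck1, the gluconeogenic gene for phosphoenolpyruvate carboxykinase, was lowest in ND-2, at 329 FPKM, and at 688 to 1534 FPKM in the other 7 libraries. G6pc (ENSRNOG00000051171), the gene of glucose-6-phosphatase, had its highest value in HFD-3, 188 FPKM, and its lowest in ND-2 and HFD-1, 43.0 and 43.9 FPKM, and was picked out after its values were seen. A second row named G6pc (ENSRNOG00000051344) is not described by library. Summed over all 13 rows of the list, the level did not follow Igfbp1 throughout. The sum was lowest in ND-2, at 1049 FPKM, but HFD-1 and HFD-2 were alike, at 1548 and 1537 FPKM. ND-1, at 3196 FPKM, exceeded HFD-3, at 2746 FPKM. Pck1 did not pass between the diets (adjusted p = 0.993 by edgeR).

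Igfbp2 (ENSRNOG00000016957, chromosome 9, 80118029 to 80144789), a binding protein gene that is high in fetal liver and low in the adult, was barely expressed. It was at 0.692, 1.11 and 0.231 FPKM in the ND group and at 0.305, 0.181, 0.176, 0.148 and 0.382 FPKM in the HFD group. ND-1 and ND-2 lay above all HFD libraries, and ND-3 lay among them. The means were 0.677 ± 0.440 and 0.239 ± 0.101 FPKM, from 59 counts in all in the ND group and 36 in the HFD group. The log2 fold change was -1.40 ± 0.52 (SE; 95% interval -2.57 to -0.23; unadjusted p = 0.0235, adjusted p = 0.782 by edgeR) and did not pass. It was -0.98 without ND-2. The difference of mean log2 CPM was -0.76 for the deep and -2.14 for the shallow libraries.

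Markers of bile duct cells summed to 10.02 FPKM in ND-2, 8.54 FPKM in ND-1 and 5.75 FPKM in ND-3, and to 4.64 to 8.31 FPKM in the HFD libraries. All 6 of these markers were found and 5 were tested, with Krt7 at 0 to 0.128 FPKM. Their part in the Igfbp2 level was not tested.

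Igfbp4 (ENSRNOG00000010635, chromosome 10, 86950557 to 86962578), whose product mostly restrains IGF action, was abundant in every library. It was at 300, 365 and 272 FPKM in the ND group and at 249, 281, 347, 397 and 360 FPKM in the HFD group. All 4 libraries of the shallow set lay above all 4 of the deep set, on either diet, and the part of depth in this was not tested. The log2 fold change was 0.06 ± 0.18 (SE, adjusted p = 0.993 by edgeR; 95% interval -0.35 to 0.46). It was -0.03 without ND-3. The difference of mean log2 CPM was -0.17 within the deep set and 0.07 within the shallow set.

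Per length, Igfbp4 and Igf1 were the most abundant of the 8 genes in mean FPKM, and their ranges overlapped. Ghr, Igfals and Igfbp1 followed with overlapping ranges, that of Igfbp1 also reaching the levels of Igf1 and of Stat5b, then Stat5b, then Socs2, which overlapped with Stat5b in single libraries, and last Igfbp2. Among the 7 IGF binding protein genes Igfbp1 to Igfbp7, Igfbp4 made up 46.9% to 85.4% of the summed FPKM and Igfbp1 1.36% to 46.7%. In HFD-3 the 2 genes were close, at 46.9% and 46.7%, and the sum was highest, 740 FPKM. In ND-2 Igfbp4 made up 85.4%, with Igfbp1 at 1.36% of a sum of 428 FPKM. Igfbp3 and Igfbp7 made up 2.04% to 5.96% and 4.34% to 11.6%, and Igfbp2 at most 0.259%.

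**Figure D2:**
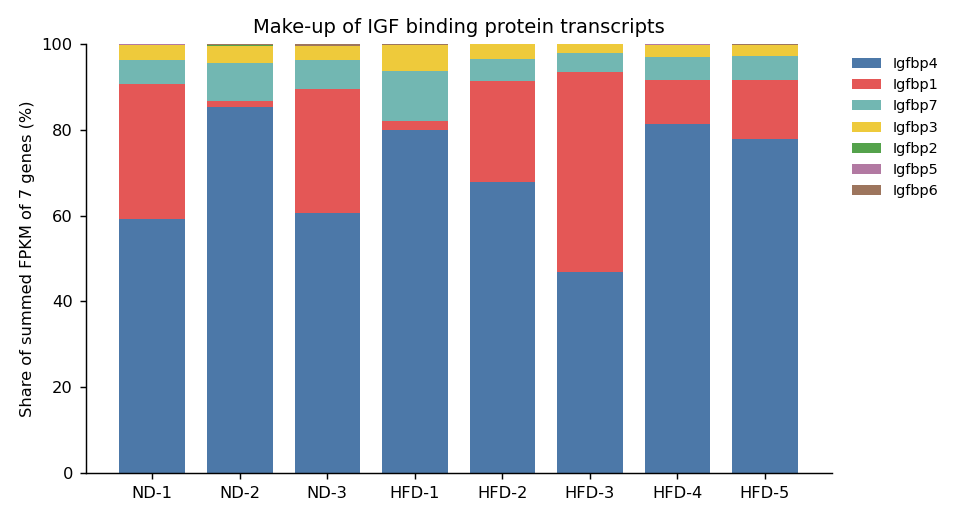
Share in percent (vertical axis) of each of 7 IGF binding protein genes in their summed FPKM, by library (bars). Igfbp4 is the largest part in all 8 libraries and is close to Igfbp1 in HFD-3, while Igfbp1 shrinks to 1.36% in ND-2 and 2.17% in HFD-1.

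The spread between libraries of a diet set the genes apart from each other. It is given as the SD of log2 CPM around the diet means. Ghr had an SD of 0.123, and 8.67% of all tested genes had a smaller one. For Igf1, Igfbp4, Igfals and Stat5b the SDs were 0.182, 0.262, 0.290 and 0.307, and the shares of genes with a smaller SD 25.0%, 47.1%, 53.4% and 56.4%. Igfbp2, Socs2 and Igfbp1 had SDs of 0.758, 1.03 and 2.30, and 91.9%, 96.3% and 99.7% of genes varied less. The few counts of Igfbp2 add counting error to its SD. The median SD of all genes was 0.274.

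**Figure D3:**
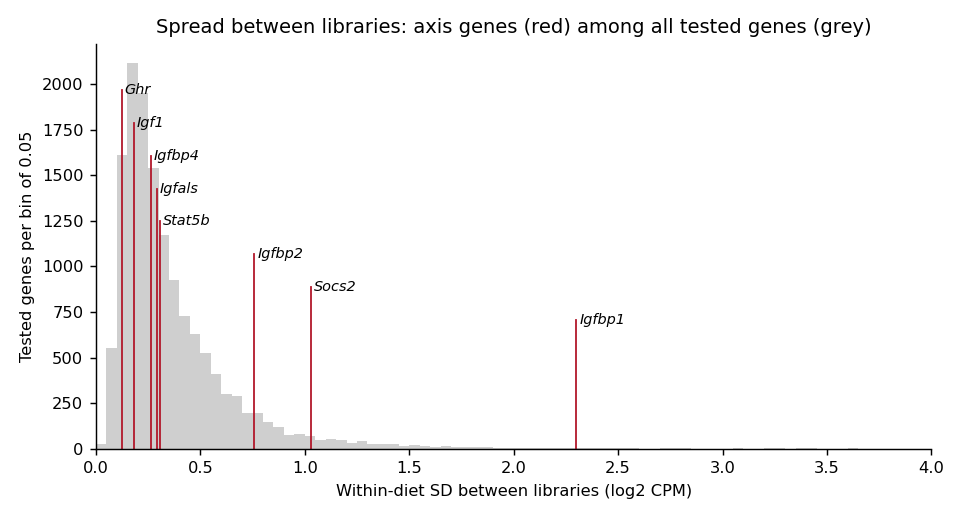
Histogram of the within-diet SD of log2 CPM over 14148 tested genes (grey, horizontal axis SD, vertical axis number of genes), with the 8 axis genes as red lines of arbitrary height. Ghr lies at 0.123 in the low part and Igfbp1 at 2.30 in the far tail.

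Transcripts in the lncRNA table gave a second readout at 4 of the loci. There were 7 that overlapped a gene of the axis, and 0 passed limma's test, while 0.0101% of all 19799 tested passed. At an unadjusted p under 0.05 there were 0 of the 7 and 5.21% of all. No source used here says whether counting was by strand or how common reads were divided, so reads of a gene and of a lncRNA on it cannot be told apart. TCONS_00079549 (502 nt, chromosome 14, 87451725 to 87452419) lies within Igfbp1. It was at 1465, 23.0 and 1243 FPKM in the ND group and at 20.9, 860, 503, 131 and 177 FPKM in the HFD group. It was lowest in ND-2 and HFD-1, as the gene was, but HFD-3 was not its highest library.

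The ratio of TCONS_00079549 to Igfbp1 FPKM was 9.17, 9.60 and 8.78 in ND-1, ND-3 and HFD-2, and 1.46 to 3.95 in the other 5 libraries. All 4 libraries of the shallow set were among those 5, with HFD-1 of the deep set at 3.10. The log2 difference between the diets was -0.92 ± 1.47 (SE, adjusted p = 0.989 by limma), and 0.11 without ND-1. NONRATT025697.2 (304 nt, chromosome 7, 28412207 to 28417731), at one end of Igf1, was at 8945 ± 1180 FPKM in the ND group and 7975 ± 1481 FPKM in the HFD group (adjusted p = 0.988 by limma). Like Igf1, it was lowest in HFD-4, at 5637 FPKM. The smallest p of the 7 was that of NONRATT006030.2 in Stat5b (8.34 ± 3.08 and 6.41 ± 4.69 FPKM, adjusted p = 0.985 by limma).

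The wider pathway was read from 4 further lists, and 0 of the 59 genes tested in them passed edgeR's test. Of growth hormone receptor signalling genes and their brakes, 18 were tested, 12 with higher and 6 with lower fitted values (median log2 fold change 0.02), and 0 had an unadjusted p under 0.05. Cish, described above, had the smallest p. Grb2, an adaptor gene of the growth factor pathways, came next at 25.6 ± 2.60 and 22.1 ± 2.41 FPKM (adjusted p = 0.940 by edgeR), and its log2 fold change was -0.23 with all libraries and -0.14 without ND-3. Of 13 other IGF genes tested, 8 were higher and 5 lower (median 0.10), again with 0 at an unadjusted p under 0.05. Stc1, which encodes stanniocalcin-1, was at 0.171 ± 0.130 and 0.367 ± 0.177 FPKM (adjusted p = 0.884 by edgeR), and its log2 fold change was 1.26 with all libraries and 0.76 without ND-1. Igfbp6, a binding protein that prefers IGF2, was at 0.952 ± 0.690 and 0.357 ± 0.257 FPKM (adjusted p = 0.930 by edgeR). Igfbp6 was highest in ND-3, at 1.75 FPKM against 0.0272 to 0.610 FPKM in the other 7 libraries, and its log2 fold change was -1.47 with all libraries and -0.65 without ND-3. Of 13 fasting, FOXO1 and glucagon responsive genes, 7 were higher and 6 lower (median 0.00). The smallest p there was that of Sesn1, a FOXO target, at 7.21 ± 0.663 and 5.76 ± 0.850 FPKM (adjusted p = 0.893 by edgeR).

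**Figure D4:**
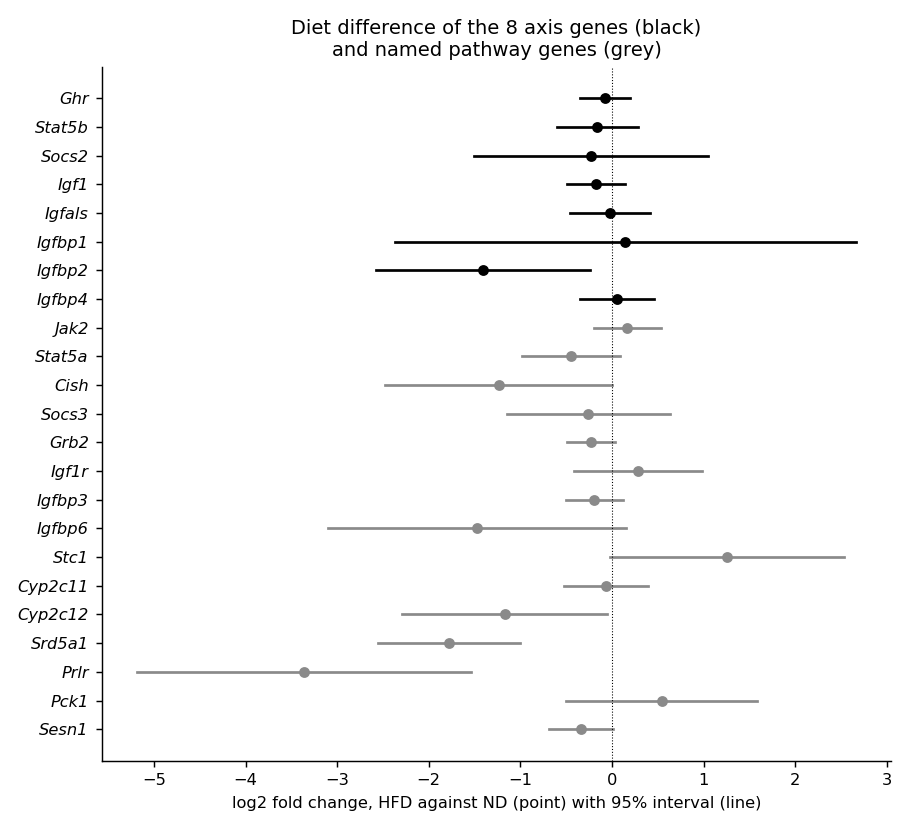
Log2 fold change of the high fat diet against chow (points, horizontal axis) with 95% intervals from edgeR (lines) for the 8 axis genes (black) and the named pathway genes (grey). The intervals of Ghr and Igf1 are short and include 0, that of Igfbp1 runs from -2.37 to 2.66, and those of Igfbp2, Cyp2c12, Srd5a1 and Prlr lie below 0 although none of these passed after adjustment.

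The list of genes that depend on the pattern of growth hormone release, and so on sex in rats, held the smallest p-values of the 4 lists. Of 15 tested, 6 had higher and 9 lower fitted values (median log2 fold change -0.20), and 0 passed over all genes. At an unadjusted p under 0.05 there were 8 of the 15, and 5.71% of all genes tested. The list was drawn up with results on some of its genes known, so this count is no independent evidence. Srd5a1, the gene of steroid 5-alpha-reductase 1, known to be higher in female than male rat liver, was at 66.9, 77.8 and 69.4 FPKM in the ND group. In the HFD group it was at 13.9, 21.2, 11.6, 18.7 and 38.1 FPKM, and all 5 libraries lay below all 3 in the ND group. Its log2 fold change was -1.78 ± 0.35 (SE, adjusted p = 0.147 by edgeR). The difference of its mean log2 CPM was -2.05 for the deep and -1.88 for the shallow libraries. Srd5a1 passed with DESeq2 (adjusted p = 0.000196) and, by edgeR, without HFD-5 (adjusted p = 0.0308).

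Prlr, the prolactin receptor gene, also known as female-predominant in rat liver, was at 1.42, 7.21 and 12.6 FPKM in the ND group and at 0.371, 0.895, 1.98, 0.159 and 0.183 FPKM in the HFD group. HFD-3 lay above ND-1, and the other HFD libraries lay below all of the ND group. Its log2 fold change was -3.36 ± 0.81 (SE, adjusted p = 0.335 by edgeR). Cyp2c12, the female-specific steroid hydroxylase gene, was at 34.0 to 127 FPKM in the ND group and 12.0 to 55.2 FPKM in the HFD group (adjusted p = 0.850 by edgeR), and its log2 fold change was -1.17 with all libraries and -0.69 without ND-2. Cyp2c11, its male-specific counterpart, was at 2379 ± 318 and 2309 ± 539 FPKM (adjusted p = 0.993 by edgeR). Reads of such near-identical P450 genes may be divided between copies, which makes these levels uncertain.

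The other genes of the list with an unadjusted p under 0.05 are named after their values were seen. Mup5, of the male-predominant major urinary protein family, whose copies share reads, was at 801 ± 126 and 1484 ± 466 FPKM. Cyp3a18 was at 316 ± 80.2 and 448 ± 83.4 FPKM. Akr1c1, an aldo-keto reductase gene, was at 99.3 ± 31.9 and 59.4 ± 14.6 FPKM, and Cux2, a female-predominant repressor gene in mouse liver, at 0.422 ± 0.188 and 0.263 ± 0.0590 FPKM. Onecut1, which encodes the factor HNF6 and is induced by growth hormone, was at 10.2 ± 10.4 and 3.17 ± 1.72 FPKM. Their adjusted p by edgeR ran from 0.516 to 0.871. Onecut1 was at 22.0 FPKM in ND-2 against 1.40 to 6.14 FPKM in the other 7 libraries, and its log2 difference was 0.27 for the deep and -3.48 for the shallow libraries.

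Read by library, several genes that growth hormone acts on had their highest or lowest values in the same libraries. This pattern was picked out after the values were seen, and not all such genes followed it. In ND-2, Cish (3.16 FPKM), Onecut1 (22.0 FPKM) and Igfals (167 FPKM) had their highest values of all 8 libraries. Bcl6, a repressor gene that growth hormone turns down, had its lowest there, 0.652 FPKM against 5.82 to 16.2 FPKM elsewhere. HFD-4 was the reverse in part: Igf1 (236 FPKM), Socs2 (1.46 FPKM) and Cish (0.239 FPKM) had their lowest values there and Bcl6 its highest, 16.2 FPKM. The Cish value in HFD-4 rests on 12 counts, and Igf1 varied little over all libraries. Onecut1 was at 1.43 FPKM in HFD-4 and 1.40 FPKM in HFD-5, its lowest values. Against the pattern, Igf1 in ND-2 (320 FPKM) lay between ND-1 and ND-3, and Socs2 was highest in HFD-1 (8.01 FPKM). Igfals in HFD-4 (105 FPKM) lay above ND-1 and ND-3. ND-2 and HFD-4 both belong to the shallow set.

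**Figure D5:**
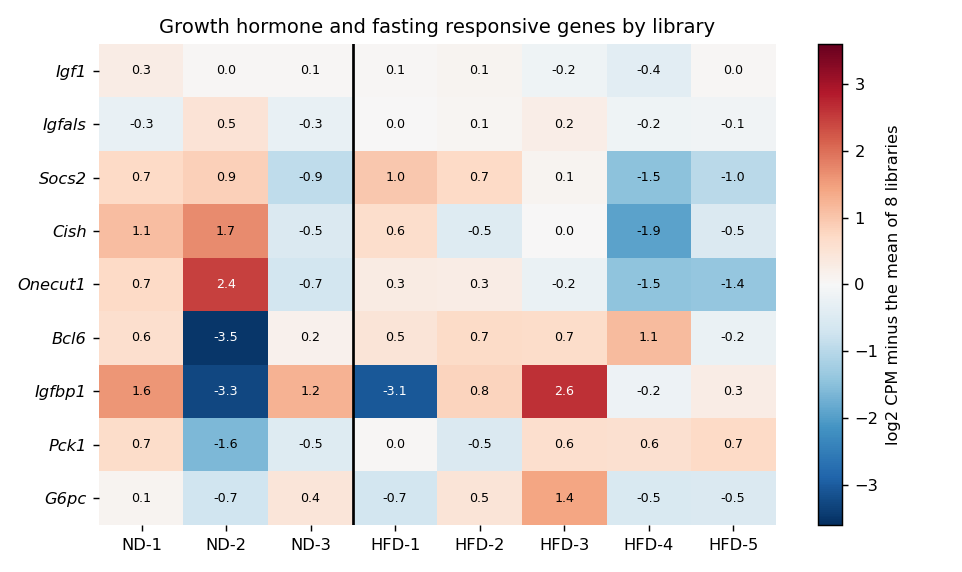
Log2 CPM minus the mean of the 8 libraries (colour and printed value) of 9 genes (rows) in each library (columns, ND left of the line, HFD right). ND-2 is high for Cish and Onecut1 and low for Bcl6 and Igfbp1, HFD-4 is low for Socs2 and Cish, and Igf1 stays near its mean. The genes were chosen after their values were seen. Of the rows named G6pc, the one with the higher mean FPKM in the ND group is shown.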

How the data were processed

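Liver RNA-seq of 8 libraries, made with a TruSeq RNA kit per the labels' protocols, was grouped by the sample titles. The submitters' processing notes name build Rnor_6.0, Cufflinks 2.2.1, TopHat2 2.0.9 and Cuffdiff; no source used here gives the annotation release, the use of strand or which tool made which column. For each Ensembl gene the authors deposited a raw count and an FPKM per library, and for each lncRNA transcript an FPKM; 8 other per-library columns and 4 group columns of that lncRNA table were left out. The lncRNA lengths are the authors' deposited values.

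Counts were tested with edgeR 4.0.16 in R 4.3.3 (TMM, filterByExpr, quasi-likelihood test, 2-sided), which kept 14148 genes; the biological coefficient of variation was 26.0%. FPKM are given as levels, and log2 CPM used a prior count of 1. For edgeR, whose test reports no SE, the SE was derived as the absolute log2 fold change divided by the square root of the test's F. Intervals are at 95%, from this SE and the fit's degrees of freedom, for each gene alone. lncRNAs were tested with limma 3.58.1 on log2(FPKM + 0.5), for transcripts of at least 0.5 FPKM in at least 3 libraries, which makes changes of low transcripts look smaller. A result passed at an adjusted p (Benjamini-Hochberg) under 0.05. Depth sets were parted at the widest gap in total counts on a log scale. Differences within a depth set are those of mean log2 CPM between the diets, and are not fitted values.

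The members and lists were chosen with earlier results of these data known. Named by rule were the 8 members, the 2 genes of smallest p in each of 4 pathway lists and any that passed, Jak2, Stat5a, Cish, Socs3, Igfbp3, Igf1r, Cyp2c11, Cyp2c12 and Pck1, 1 further gene that is not reported here, the 3 genes most like Igf1, and the 3 lncRNAs of smallest p. Any other gene was picked with its values in view. Of the pathway symbols, Cyp2a1, Cyp2a2 and Obp3 were not matched, and ste2 was matched to Sult1e1 by a synonym in a RefSeq table of assembly GRCr8.

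The edgeR test of genes and the limma test of lncRNAs were checked on simulated data, and DESeq2 and the other alternatives were not. At a coefficient of variation of 26% for every gene, edgeR recovered 48% of 2-fold and 100% of 4-fold changes, with 5 false calls among 153. Changes were planted only in genes with a mean above 5 CPM. Igfbp1, Socs2 and Cish varied more than most genes, and Igfbp2 lay below that level, so these shares do not apply to them. Nor do they apply to other genes of such low counts. Libraries of a diet differed by more than sampling noise (lowest chi-square per degree of freedom 23.4). Alternatives were other scalings, filters and tests (DESeq2 1.42.0, limma), a replicate block, the depth set as a covariate, and leaving out each library.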

Additional observations from a re-analysis of the deposited data

Results flagged for a closer look

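Of 31 genes and lncRNAs checked in the 5 HFD libraries, 2 had a library far from the others by Dixon's test on FPKM. Chance alone gives this in about 1 in 20 groups if values have a Gaussian spread. FPKM need not have that spread, and the test was not run on a log scale. Igfbp1 was at 346 FPKM in HFD-3, with the next HFD library at 98.0 FPKM, a gap of 0.731 of the range of the group against a critical value of 0.71. NONRATT025698.2, a lncRNA of 914 nt inside Igf1 (chromosome 7, 28469785 to 28470699), was at 147 FPKM in HFD-3, with the next HFD library at 45.5 FPKM (0.776 of the range). Both flags fell on HFD-3, the library with the highest Kupffer cell and macrophage markers, in which Igf1 itself was at 274 FPKM. Groups of 3, as on chow, were not checked.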

How the results depend on the processing

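The count of axis genes that passed between the diets was 0 under every alternative run, and so was that of the 7 lncRNAs on them. The lowest adjusted p that any of the 8 genes reached was 0.476, that of Igfbp2 without ND-3. The count over all genes was 1, and it was 18 with no filter, 137 with DESeq2, 2 with voom and sample weights, 0 with limma on log2(FPKM + 1), 5 with the depth set as a covariate, and 0 to 9 without 1 library. Over all lncRNAs the count was 2, and 0 to 3 without 1 library. No pairing of the libraries by number was seen: same-numbered deviations correlated at 0.114, -0.28 and 0.0773, and 1 of 3 ND libraries correlated best with its own number. So few pairs cannot exclude a pairing. With the replicate block 0 genes and 0 lncRNAs passed.

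These fold changes and differences, none of which passed, changed sign. With the replicate block the log2 fold change was 0.36 for Socs2, 0.13 for Igfals, -0.13 for Igfbp4 and -0.10 for Igf1r, and the difference was 0.0209 for NONRATT016144.2 and -0.43 for NONRATT006031.2. With the depth set as a covariate it was -0.0446 for Igfbp1, -0.0723 for Igfbp4 and 0.00637 for Cyp2c11. For Igfals it was 0.0018 with voom and 0.0358 with limma on log2(FPKM + 1), and NONRATT006031.2 was at -0.22 with a pseudocount of 0.1. Leaving out 1 library gave -0.62 to 0.0454 for Socs2, -0.15 to 0.29 for Igfals, -0.89 to 0.71 for Igfbp1, -0.0295 to 0.15 for Igfbp4, -0.35 to 0.023 for Stat5b and -0.19 to 0.0718 for Cyp2c11. For lncRNAs it gave -0.0766 to 0.038 for NONRATT016144.2, -0.27 to 0.83 for NONRATT006031.2, -0.42 to 0.48 for NONRATT025698.2 and -2.87 to 0.115 for TCONS_00079549. Igfbp2 could not be tested at 1 CPM in 3 libraries or without ND-1, HFD-1 or HFD-2, since it then failed the filter. The cause of these changes was not tested.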
